A study of Oryza sativa with 36 samples.

Results

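The histone genes of rice were followed through 35 RNA libraries of axillary meristem tissue from 2 cultivars, over 43 listed loci among the 55801 loci of the deposited count table. The list holds 13 loci of H2A and its variants, 8 of H2B, 10 of H3 with H3.3 and the centromeric CENH3, 9 of H4 and 3 of the linker histone H1. It was drawn up by histone type with the trend of these genes across AM1 to AM5 already known, so that trend is given as a description, and counts of loci past a threshold on it support nothing. At least 1 molecule was counted at 42 loci, and 40 passed the filter on low counts. The H2A loci LOC_Os03g51200 (9 molecules in all) and LOC_Os07g36130 (118 molecules) and the H4 locus LOC_Os05g38760 (0 molecules over 35 libraries, where a count of 0 allows up to 3) did not pass.

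The plants were the cultivar Takanari and NIL-MP3, whose name marks a near-isogenic line. The 6 tissue labels were SAM and a numbered series from AM1 to AM5. The abbreviations are not explained, and every library, SAM included, is described as axillary meristems. NIL-MP3 had 3 libraries of each tissue, and so did Takanari except for SAM, which had 2 because the submitters left out library 18. All plants grew in chambers in short days (10 h of light), warmer in the light (27 °C) than in the dark (25 °C), and the labels give no plant age, no treatment and no record of how many plants a library holds. Where the labels do not say that libraries came from separate plants, p-values measure only the spread between these libraries.

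Histones package DNA. A pair each of H2A, H2B, H3 and H4 forms the core of a nucleosome, around which the DNA winds, and H1 binds the linker between nucleosomes. Most core histone genes are present in many near-identical copies that are transcribed during S phase, when new DNA has to be packaged, and in plants their mRNAs carry a poly(A) tail, which an assay primed on that tail can capture. Variants such as H3.3 and H2A.Z are also placed into chromatin outside replication, and CENH3 replaces H3 at centromeres. In plant shoots, histone H4 transcripts have long been used to mark dividing cells of meristems and young organs.

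The deposited table gives the histone type of no locus. The loci of H2A.Z (LOC_Os03g06670, LOC_Os10g28230 and LOC_Os03g53190), H3.3 (LOC_Os03g27310 and LOC_Os06g04030) and CENH3 (LOC_Os05g41080) were assigned from general knowledge of rice locus numbers. The 8 H2B loci, the 7 other H3 loci and the 9 H4 loci, 24 in all, are called the core loci below. The 10 remaining H2A loci are kept apart because the H2A.X and H2A.W variants among them were not separated.

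CEL-Seq2 counts 1 tag near the 3′ end of each captured mRNA molecule, so counts were not divided by gene length. They were scaled, in the unit CPM, to the library total over the loci that passed the filter on low counts. Values in CPM are thus higher than they would be if scaled to all counts of the library. Total counts ranged from 77362 to 224706 per library with a median of 143050, and the histone loci took 0.70 to 2.81% of them. How reads that match several near-identical copies were counted was not given in the sources used here, nor was the strand setting. Values of single loci within a histone type are therefore uncertain where copies could share reads. Sums over a type do not depend on how counted reads were divided within it. If shared reads were left out, sums over near-identical copies would be too low, and shares and rankings that use them would be affected. In bulk libraries, fewer cells of a type and less RNA per cell cannot be told apart. The gene table used here pairs no rice locus number of this file with a name, so markers of meristem or leaf tissue and other S phase genes were not used here, and the tissue labels were not checked against markers.

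The most abundant single locus was the H1 locus LOC_Os04g18090, with a mean of 2311 CPM over the 35 libraries. The H3.3 loci followed, LOC_Os03g27310 at 2024 CPM and LOC_Os06g04030 at 1320 CPM, and then the H4 locus LOC_Os09g38020 at 1233 CPM and the H1 locus LOC_Os06g04020 at 1021 CPM. The highest H2A locus was LOC_Os03g17100 at 830 CPM, the highest core H3 locus LOC_Os01g64640 at 802 CPM and the highest H2B locus LOC_Os01g06010 at 766 CPM. CENH3 was among the lowest, at 60.1 CPM and 272 molecules in all.

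Core histone transcripts were abundant in AM1 and AM2 and lower at each later label. The summed core loci stood at 13500 ± 3954 CPM for AM1 libraries (SD, n = 6) and at 12770 ± 3643 CPM for AM2. AM3 followed at 8683 ± 2224, AM4 at 5855 ± 2067 and AM5 at 4100 ± 850 CPM (n = 6 each), against 11430 ± 2272 in SAM (n = 5). The AM1 libraries lay between 7311 and 18850 CPM and the AM5 libraries between 2542 and 4817, so the AM1 and AM5 groups did not overlap. The AM1 mean was 3.29 times the AM5 mean. Taken within the 6 sets of library numbers that hold each AM label once, that ratio ran from 2.55 to 3.91.

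Most of the difference lay after AM2. From AM1 to AM2 the core sum differed by -0.07 ± 0.26 on the log2 scale (SD over 6 sets) and was lower in 3 of 6 sets. The steps from AM2 to AM3, from AM3 to AM4 and from AM4 to AM5 were -0.54 ± 0.36, -0.60 ± 0.34 and -0.47 ± 0.28, each lower in 6 of 6 sets. Of the 40 tested loci, 18 had every AM5 library below every AM1 library and 0 had every AM5 library above, against 2.15% and 2.13% of all tested loci in those directions.

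**Figure D1:**
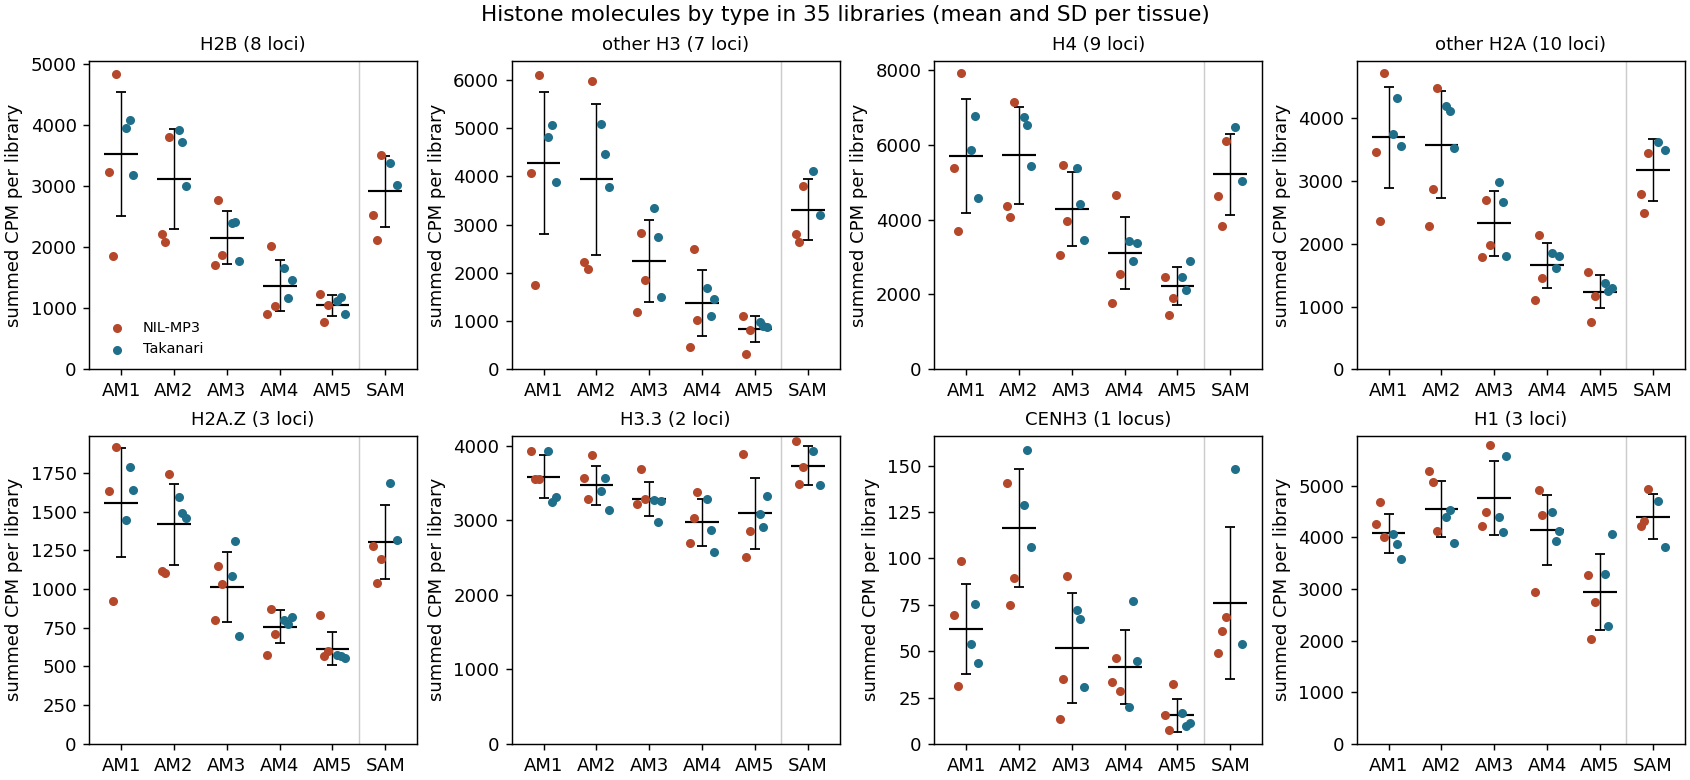
Summed CPM per library (vertical axis, from 0) for 8 groups of histone loci by tissue label, with each point 1 library coloured by cultivar and the bars showing the mean and SD per tissue. H2B, other H3, H4, other H2A and H2A.Z were lower from AM3 onward, H3.3 stayed between 2504 and 4056 CPM in every library, and CENH3 had its highest mean in AM2.

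Per locus, the trend was summarised by the slope of a linear contrast over AM1 to AM5, in log2 units per label number, averaged over the cultivars (edgeR quasi-likelihood fit). Because the loci were chosen with these slopes known, nothing is read from the following count. Of the 40 tested loci 36 had a negative slope with an adjusted p under 0.05, beside 9.81% of all 6943 tested loci, and 0 had a positive one, beside 9.36%. The median slope was -0.54 over the histone loci and 2.88e-05 over all tested loci. Just inside that threshold was the H3.3 locus LOC_Os03g27310, with a slope of -0.08 ± 0.03 (SE), and just outside it was the H2A locus LOC_Os05g38640, with -0.08 ± 0.03.

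The slopes within each cultivar come from the same values, and nothing is read from their counts either. In NIL-MP3, 32 of 40 loci had a negative slope past the threshold, beside 2.66% of all tested loci, and in Takanari 33 of 40, beside 5.89%. The NIL-MP3 count came to 20 with AM5 library 13 left out, to 19 with AM1 library 5 left out and to 16 with numbers 7 to 12 left out. The Takanari count came to 21 with its numbers 7 to 12 left out. Over AM1 to AM4 alone the counts were 10 in NIL-MP3 and 21 in Takanari.

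**Figure D2:**
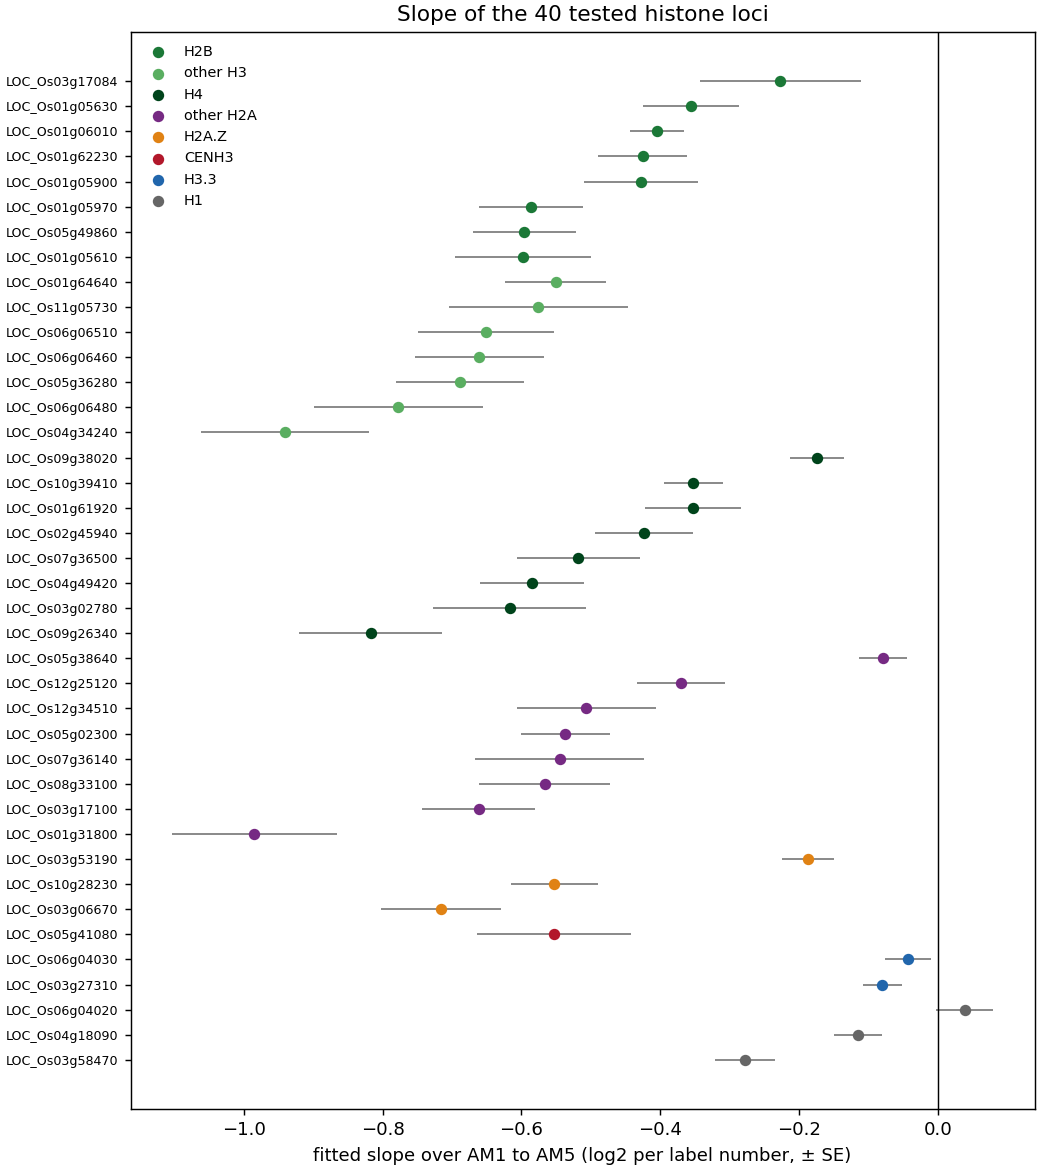
Fitted slope over AM1 to AM5 (horizontal axis, log2 per label number, with its SE as a line) of the 40 tested histone loci, grouped and coloured by type. The 7 other H3 loci lie between -0.94 and -0.55, whereas both H3.3 loci and the H1 locus LOC_Os06g04020 lie near 0.

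Among the H2B loci, whose protein pairs with H2A in the nucleosome, slopes ran from -0.60 to -0.23. The most abundant, LOC_Os01g06010, measured 817, 1071 and 1328 CPM in AM1 (lowest, median and highest of 6 libraries) and 287, 339 and 529 CPM in AM5. Its AM1 and AM5 libraries did not overlap, and its slope of -0.40 ± 0.04 corresponds to a 3.07-fold lower level over the 4 steps. This locus held 32 ± 6.84% of the H2B molecules in AM1 and 35.2 ± 7.16% in AM5 (SD, n = 6), a difference smaller than the spread. LOC_Os05g49860 measured 414, 731 and 1137 CPM in AM1, 252, 387 and 610 CPM in AM3 and 109, 150 and 337 CPM in AM5, and LOC_Os01g05970 measured 196, 633 and 906 CPM in AM1 and 46.6, 126 and 214 CPM in AM5. The AM1 and AM5 libraries did not overlap in the former and overlapped in the latter, and the slopes were -0.60 ± 0.07 and -0.59 ± 0.08.

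The 7 other H3 loci, the copies of the H3 that is laid down behind the replication fork, had the most negative median slope of the groups, -0.66. Their sum was 4274 ± 1470 CPM in AM1 and 832 ± 273 CPM in AM5 (SD, n = 6), with a ratio of the means of 5.14. LOC_Os01g64640 measured 641, 1336 and 1598 CPM in AM1 and 93.3, 348 and 439 CPM in AM5, without overlap, and its slope was -0.55 ± 0.07. LOC_Os04g34240 had 85.1, 111 and 226 CPM in AM1 and 0, 12.5 and 47.1 CPM in AM5, again without overlap. In AM5 it was at 0 in Takanari libraries 1 and 7, where a count of 0 allows up to 50.6 and 33.3 CPM. Its slope of -0.94 ± 0.12 corresponds to a 13.6-fold lower level over the 4 steps.

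H4, which pairs with H3 and has no variant in this list, had the widest range of slopes among the core types, from -0.82 to -0.17. Its sum was 5698 ± 1510 CPM in AM1 and 2222 ± 503 CPM in AM5 (SD, n = 6), with a ratio of the means of 2.56. The most abundant H4 locus, LOC_Os09g38020, was shallow, with a slope of -0.17 ± 0.04 or 1.62-fold over the 4 steps. It measured 745, 1234 and 1735 CPM in AM1, 1257, 1480 and 1910 in AM2 and 492, 851 and 1112 in AM5, and the AM1 and AM5 libraries overlapped. The scarcer LOC_Os09g26340 measured 97.7, 178 and 395 CPM in AM1 and 9.45, 20.1 and 53.4 in AM5, without overlap, with a slope of -0.82 ± 0.10. LOC_Os02g45940 lay between them, with 796, 1254 and 1722 CPM in AM1, 503, 892 and 1204 CPM in AM3 and 194, 457 and 521 CPM in AM5, and so did LOC_Os10g39410, with 564, 823 and 956 CPM in AM1 and 163, 318 and 439 CPM in AM5. In neither did the AM1 and AM5 libraries overlap, and the slopes were -0.42 ± 0.07 and -0.35 ± 0.04.

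The 10 H2A loci outside H2A.Z summed to 3695 ± 807 CPM in AM1 and 1236 ± 266 CPM in AM5 (SD, n = 6), and 8 of them were tested. LOC_Os01g31800 had the most negative slope of all histone loci, -0.98 ± 0.12, or 15.3-fold over the 4 steps. It measured 93.1, 278 and 404 CPM in AM1 and 0, 25.1 and 66.5 CPM in AM5, without overlap. In AM5 it was at 0 in NIL-MP3 libraries 7 and 13, where a count of 0 allows up to 32.1 and 23.3 CPM. LOC_Os03g17100, the most abundant H2A locus, measured 931, 1261 and 1969 CPM in AM1 and 46.7, 291 and 377 in AM5, without overlap, with a slope of -0.66 ± 0.08. LOC_Os05g38640 was the exception in this group. It measured 558, 687 and 781 CPM in AM1, 543, 721 and 985 CPM in AM2, 533, 729 and 874 CPM in AM3 and 474, 557 and 675 CPM in AM5, with overlap between all of these groups.

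Within H2A.Z, a variant found around transcription start sites, the 3 loci differed. LOC_Os03g06670 had a slope of -0.72 ± 0.09, LOC_Os10g28230 of -0.55 ± 0.06 and LOC_Os03g53190 of -0.19 ± 0.04. LOC_Os10g28230 measured 424, 700 and 898 CPM in AM1, 214, 420 and 616 CPM in AM3 and 85.5, 154 and 282 CPM in AM5, and LOC_Os03g06670 measured 155, 215 and 272 CPM in AM1 and 0, 32.4 and 94.1 CPM in AM5. In both, every AM5 library lay below every AM1 library. The 0 was in Takanari library 7, where a count of 0 allows up to 33.3 CPM. LOC_Os03g53190 was the most abundant of them and measured 341, 693 and 812 CPM in AM1 and 354, 411 and 455 in AM5, so its groups overlapped. The share of H2A.Z among all H2A molecules, over both cultivars, was 29.6 ± 1.80% in AM1 and 33.6 ± 4.93% in AM5 (SD, n = 6). That difference was within the spread of the AM5 libraries. In NIL-MP3 the share was 29.7 ± 2.13% in AM1 and 37.1 ± 4.88% in AM5 (SD, n = 3), without overlap. In Takanari it was 29.5 ± 1.87% and 30.2 ± 0.99% (SD, n = 3), with overlap. Whether the cultivars differ in this share was not tested.

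The H3.3 loci, which encode the H3 placed in chromatin throughout the cell cycle, stayed near their AM1 level. Their sum was 3585 ± 292 CPM in AM1 and 3095 ± 476 CPM in AM5 (SD, n = 6), with a ratio of the means of 1.16 and a range of 0.915 to 1.42 over the 6 sets. LOC_Os03g27310 measured 1781, 2296 and 2337 CPM in AM1 and 1555, 1863 and 2134 in AM5, and LOC_Os06g04030 measured 1205, 1370 and 1619 CPM in AM1 and 949, 1183 and 1757 in AM5. In both the AM1 and AM5 libraries overlapped. The slopes were -0.08 ± 0.03 and -0.04 ± 0.03.

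As the other H3 loci were lower and H3.3 was not by as much, H3.3 made up a larger share of H3 transcripts at the later labels. Its share of the counts at the 10 H3 loci, CENH3 included, was 46.8 ± 10.7% for AM1, 47.8 ± 9.86% for AM2, 60.1 ± 9.50% for AM3, 69.1 ± 10.4% for AM4 and 79 ± 4.89% for AM5 (SD, n = 6), and 52.8 ± 4.67% in SAM (n = 5). The AM1 libraries ran from 36.5 to 66.6% and the AM5 libraries from 75.6 to 88.7%, without overlap. The share uses the same counts as the slopes and is no separate evidence of them.

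**Figure D3:**
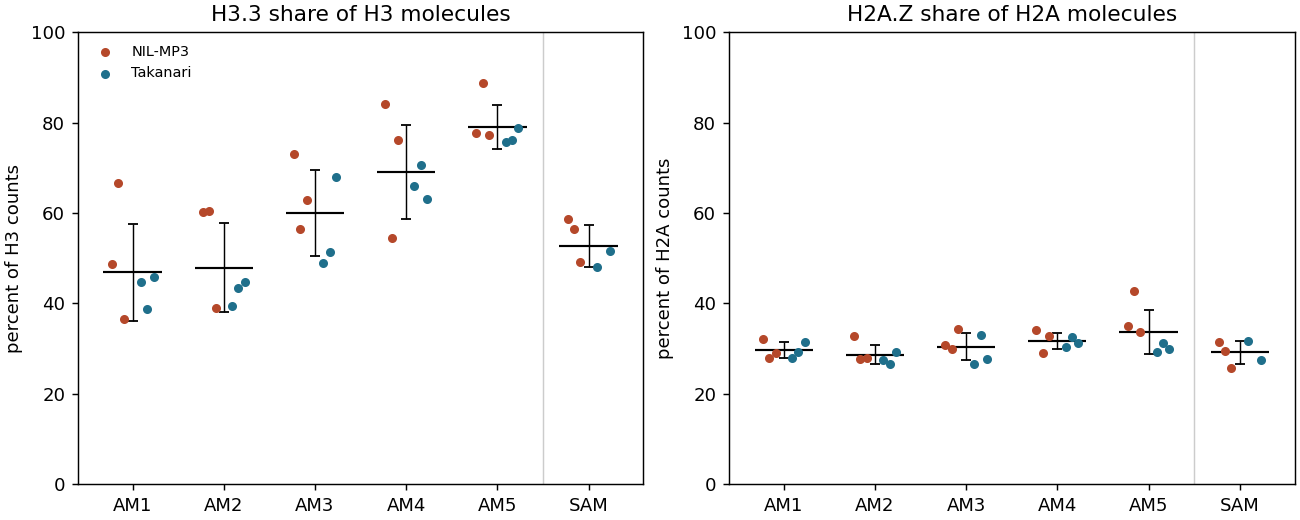
Share of H3.3 among the molecules counted at H3 loci and share of H2A.Z among those at H2A loci (vertical axes, percent) by tissue label, with each point 1 library and bars showing the mean and SD. The AM5 libraries for H3.3 lie between 75.6 and 88.7%, above the AM1 libraries, while the H2A.Z means stay between 28.6 and 33.6%.

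CENH3, which marks the centromere and is needed for chromosome segregation, had its highest level in AM2. LOC_Os05g41080 measured 31.0, 61.8 and 98.9 CPM in AM1, 74.8, 117 and 159 in AM2, 13.2, 51.2 and 90.5 in AM3 and 7.78, 13.4 and 32.1 in AM5. The AM5 values rest on 3 molecules in NIL-MP3 library 7 and 1 molecule in each other AM5 library. CENH3 was higher in AM2 than in AM1 in 5 of 6 sets, by 0.96 ± 0.55 on the log2 scale, and lower in AM3 than in AM2 in 6 of 6 sets. The curvature contrast, which weights the ends of the AM1 to AM5 series against its middle and is orthogonal to the slope, gave -0.27 ± 0.09 log2 units per squared label number with an adjusted p of 0.133 in edgeR's quasi-likelihood test.

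For the linker histone H1, the sum of the loci followed a different course, with its highest mean in AM3. The 3 loci together measured 4079 ± 375 CPM at AM1, 4552 ± 538 at AM2, 4764 ± 726 at AM3, 4142 ± 675 at AM4 and 2946 ± 742 at AM5 (SD, n = 6). The sum was higher in AM2 than in AM1 in 6 of 6 sets and lower in AM5 than in AM4 in 6 of 6 sets. From AM2 to AM3 it differed by 0.06 ± 0.20 on the log2 scale (SD over 6 sets). It was lower in AM3 in 2 of 6 sets, so AM2 and AM3 could not be ranked. LOC_Os04g18090 was the 1 histone locus of 40 that passed the test of curvature, beside 0.562% of all tested loci in that direction and 1.54% in either. It measured 1693, 2218 and 2792 CPM in AM1, 2228, 2580 and 3401 in AM3 and 995, 1543 and 2484 in AM5, with overlap between all 3 groups. Its curvature was -0.13 ± 0.03 log2 units per squared label number (adjusted p = 0.00732, edgeR quasi-likelihood test).

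The other H1 loci had curvatures of -0.11 ± 0.03 (LOC_Os06g04020, adjusted p = 0.0876) and -0.09 ± 0.04 (LOC_Os03g58470, adjusted p = 0.229) in the same edgeR test, and neither passed. Their slopes were 0.04 ± 0.04 and -0.28 ± 0.04, against -0.11 ± 0.03 for LOC_Os04g18090. The curvature of LOC_Os04g18090 did not pass without NIL-MP3 library numbers 7 to 12 (adjusted p = 0.0611, edgeR) or without Takanari library numbers 13 to 18 (adjusted p = 0.109). LOC_Os06g04020 measured 513, 778 and 1334 CPM in AM1, 836, 1086 and 1712 CPM in AM3 and 624, 905 and 1112 CPM in AM5. LOC_Os03g58470 measured 569, 1079 and 1236 CPM in AM1, 556, 769 and 1143 CPM in AM3 and 296, 496 and 612 CPM in AM5. Its means were lower at each later label, at 1011, 984.5, 824.4, 729.3 and 456.5 CPM from AM1 to AM5, unlike the H1 sum. In both loci the AM1 and AM5 libraries overlapped. A curvature with an unadjusted p under 0.05 was found at 7 of the 40 histone loci and at 919 of the 6943 tested loci. The count of loci past the test was 2 without NIL-MP3 AM5 library 1, AM4 library 14 or AM2 library 4, and 1 without any other single library.

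**Figure D4:**
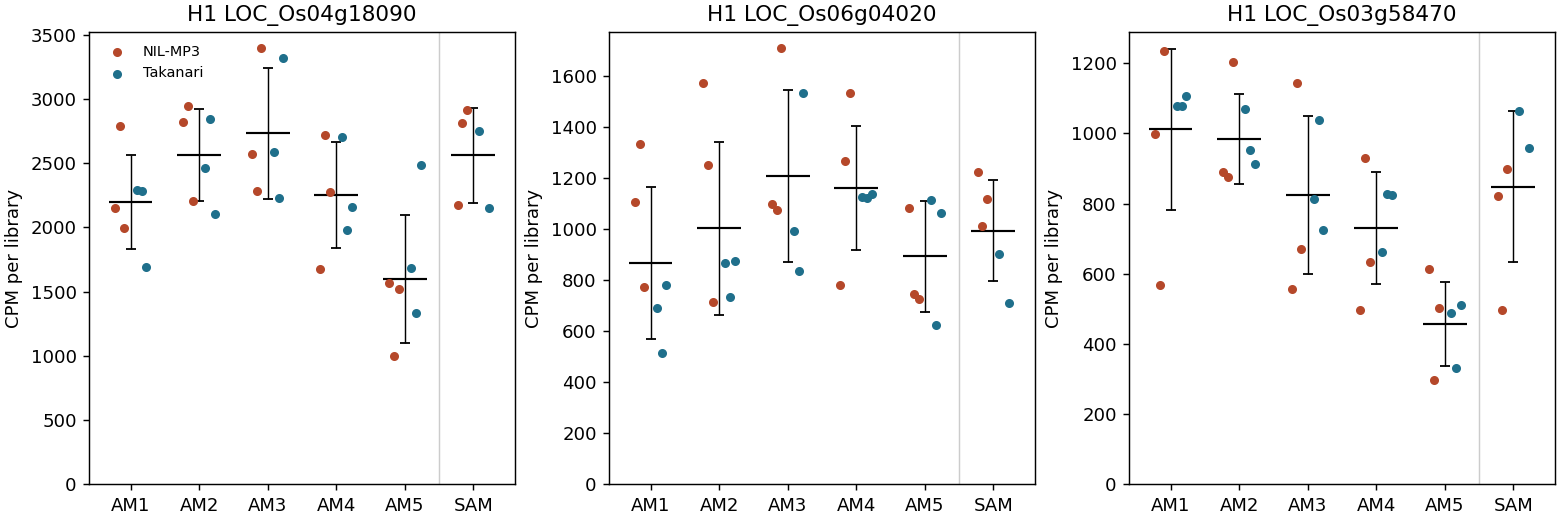
CPM of the 3 H1 loci (vertical axes, from 0) by tissue label, with each point 1 library coloured by cultivar and bars showing the mean and SD. LOC_Os04g18090 had its highest library in AM3, at 3401 CPM, and its lowest in AM5, at 995 CPM, and LOC_Os03g58470 was lowest in AM5.

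The core sum in SAM, 11430 CPM, lay between the means of AM2 and AM3, and so did the sums of H2B, other H3, H4, other H2A, H2A.Z and CENH3. The H3.3 sum in SAM, 3732 ± 261 CPM (SD, n = 5), was above the mean of every AM label, and the H1 sum, 4402 ± 435 CPM, was between those of AM1 and AM2. Averaged over AM1 to AM5, 39 of the 40 tested loci were lower than in SAM, with a median difference of -0.54 (log2) over the histone loci and -0.000185 over all tested loci. This contrast is orthogonal to the slope, but the low AM5 values enter both, so its counts add no independent support to the trend. In edgeR's quasi-likelihood test 3 of the 40 passed, all lower, beside 0.965% of all tested loci in that direction and 1.35% in either. An unadjusted p under 0.05 was found at 22 of the 40 histone loci and at 857 of the 6943 tested loci. The count past the threshold depended on the fit. With sets of library numbers as a block of 3 levels it was 5, and with a block of 6 levels within cultivars 22. With NIL-MP3 numbers 1 to 6 left out it was 14. The share of all tested loci was not taken for these fits, so nothing about the histone loci is read from these counts.

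The H2A locus LOC_Os01g31800 measured 197, 136 and 297 CPM in the NIL-MP3 SAM libraries and 323 and 248 CPM in those of Takanari. The SAM values lay within the range of the AM1 and AM2 libraries and above every AM5 library. The mean of the AM labels minus SAM on the log2 scale was -1.29 ± 0.31 (adjusted p = 0.0297, edgeR). LOC_Os03g06670, of H2A.Z, measured 260, 126 and 145 CPM in SAM of NIL-MP3 and 256 and 183 CPM in SAM of Takanari, and its difference was -1.07 ± 0.24 (adjusted p = 0.0107, edgeR). LOC_Os01g06010, of H2B, measured 823, 804, 1028, 1144 and 980 CPM in the 5 SAM libraries, all above its highest AM5 library at 529 CPM, with a difference of -0.51 ± 0.13 (adjusted p = 0.0297, edgeR). None of the 40 passed without the SAM library 12 of either cultivar, LOC_Os03g06670 alone passed without the SAM library 6 of either cultivar, and 5 passed without NIL-MP3 AM5 library 1 or AM2 library 4. With the AM5 libraries left out 0 passed, and the differences were -0.68, -0.71 and -0.30 in the order given above.

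Set against single labels, the same 5 SAM libraries gave unlike values, which are listed side by side because they share those libraries. AM1 minus SAM was positive at 32 of 40 loci, with a median of 0.23 (log2) against 0.0123 over all tested loci. In the edgeR test 0 histone loci passed, beside 0.144% of all tested loci. The 1 histone locus with an unadjusted p under 0.05 was LOC_Os09g26340, at 0.72 ± 0.35, beside 481 of the 6943 tested loci. DESeq2 and limma gave 0 as well. The median SE of these differences was 0.30. AM5 minus SAM had a median of -1.66, and 33 of 40 loci passed, all lower, beside 4.68% of all tested loci. The AM5 labels also enter the slope, so this count adds no independent support. It was 17 without Takanari library numbers 7 to 12. The H3.3 loci were not among those that passed, at -0.31 for LOC_Os03g27310 and -0.23 for LOC_Os06g04030.

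Between the cultivars, averaged over the 6 tissues, 30 of the 40 tested loci were lower in NIL-MP3. The median difference was -0.21 (log2) over the histone loci and 0.0089 over all tested loci. Histone loci varied together between sets of NIL-MP3 libraries, as given below, so the 30 are not separate observations. A single locus passed, beside 0.418% of all tested loci in that direction and 1.30% in either. An unadjusted p under 0.05 was found at 6 of the 40 histone loci and at 957 of the 6943 tested loci. This was the H2A locus LOC_Os12g25120, at 171 ± 88.8 CPM in NIL-MP3 (SD over 18 libraries of 6 tissues) and 263 ± 110 CPM in Takanari (17 libraries). By tissue, the NIL-MP3 means were 227, 239, 155, 121, 95.4 and 186 CPM in AM1, AM2, AM3, AM4, AM5 and SAM, and the Takanari means 384, 356, 229, 155, 143 and 332 CPM. NIL-MP3 was lower in 6 of 6 tissues, with ranges that overlapped in 5 of them, all but SAM. The difference was -0.58 ± 0.16 (adjusted p = 0.0465, edgeR), and it lost the call in 31 of 51 alternative settings, with an adjusted p between 0.000753 and 0.187 over them. Without any 1 of 20 single libraries 0 loci passed, and without NIL-MP3 AM4 library 2 there were 2.

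The trend across AM1 to AM5 could not be told to differ between the cultivars. The difference in slope passed at 0 of 40 histone loci and at 0% of all tested loci in edgeR, and at 0 histone loci in DESeq2 and limma. An unadjusted p under 0.05 was found at 296 of all tested loci and at 3 histone loci, which are LOC_Os03g17084 (-0.55 ± 0.23), LOC_Os06g04020 (-0.21 ± 0.08) and LOC_Os03g06670 (0.42 ± 0.19), given as the NIL-MP3 slope minus the Takanari slope. The estimates ran from -0.55 to 0.55 log2 units per label number, with 20 positive and 20 negative, and their median SE was 0.156. For the abundant LOC_Os01g06010 the 95% interval of the difference was -0.106 to 0.106, and for LOC_Os01g64640 it was -0.268 to 0.307. Slope differences within those bounds remain compatible with the data for the locus in question.

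Libraries within NIL-MP3 differed in histone content by their numbers. The labels number the libraries 1 to 18 within a cultivar, and the numbers 1 to 6, 7 to 12 and 13 to 18 each hold every tissue once. The labels do not say what these sets are. In both cultivars, libraries that share a set resembled each other across tissues. After group means were removed, the mean correlation inside a set was 0.133 to 0.265 in NIL-MP3 and 0.0847 to 0.134 in Takanari. With libraries of other sets it was -0.194 to -0.129 in NIL-MP3 and -0.156 to -0.117 in Takanari. Removing the mean of 2 or 3 libraries forces negative correlations between replicates of a group, which belong to different sets. Nothing is therefore read from the negative values. The main fit has no term for the sets, so its p-values treat libraries of different tissues as independent. In NIL-MP3 the core sum was highest in numbers 1 to 6 and lowest in numbers 13 to 18 in 6 of 6 tissues, at 18850, 12670 and 7311 CPM in AM1 and 4817, 3782 and 2542 CPM in AM5. Over the tissues, numbers 1 to 6 were 2.1 times numbers 13 to 18 for the core sum (ratio of geometric means), 2.94 times for the other H3 loci, 1.17 times for H3.3 and 1.14 times for H1. In Takanari the core ratio was 0.846 over the 5 AM labels, with no set highest throughout.

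**Figure D5:**
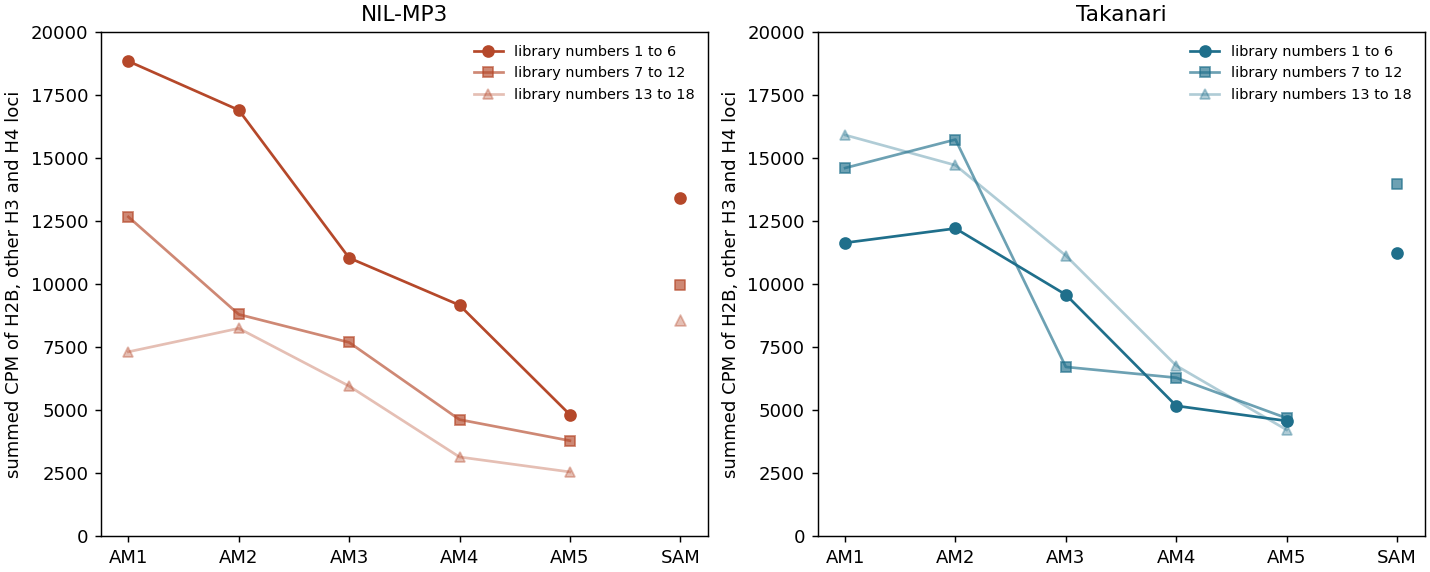
Summed CPM of the core loci (vertical axis, from 0) by tissue label in NIL-MP3 and Takanari, with a line for each set of library numbers and separate points for SAM. In NIL-MP3 the lines keep the order 1 to 6, 7 to 12, 13 to 18 from high to low, and in Takanari they cross.

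The cultivar comparison moved with these sets. Without NIL-MP3 numbers 1 to 6, 23 of 40 loci passed, 22 of them lower in NIL-MP3, beside 2.85% of all tested loci in that direction, and the median difference was -0.56 over the histone loci and -0.02 over all tested loci. The 22 were 5 other H2A, 4 H2B, 5 other H3 and 6 H4 loci with 1 locus each of H2A.Z and H1, and the locus that was higher was the H1 locus LOC_Os06g04020, at 0.36 ± 0.10 (adjusted p = 0.0284, edgeR). Without any other set of either cultivar, 0 loci passed. The median over the histone loci was -0.151 without NIL-MP3 numbers 7 to 12 and 0.0471 without its numbers 13 to 18. It was -0.195, -0.122 and -0.16 without Takanari numbers 1 to 6, 7 to 12 and 13 to 18. Numbers 1 to 6 of NIL-MP3 had its highest core sums, so leaving them out lowers its mean of the core loci. The part that these library sets have in the cultivar difference was not tested.

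Several histone loci lie close together on a chromosome, as read from the order of their identifiers in the file. The H2B loci LOC_Os01g05970 and LOC_Os01g06010, with slopes of -0.59 and -0.40, have 2 listed loci between them. The H1 locus LOC_Os06g04020 and the H3.3 locus LOC_Os06g04030 are adjacent, and their slopes were 0.04 and -0.04. The H2A locus LOC_Os03g17100, at -0.66, is adjacent to the H2B locus LOC_Os03g17084, at -0.23 ± 0.12. The strand setting of the counting is not given, so reads of adjacent loci that overlap could not be told apart.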

How the data were processed

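The deposited table holds raw UMI counts of molecules per locus, whole numbers that the authors did not normalize, made from CEL-Seq2 libraries of 100 pg of RNA and 11 to 15 PCR cycles, per the labels. The tools given, per the submitters' processing notes, are Bowtie2 and Subread 2.1, and the genome build, annotation and treatment of shared reads were not given in the sources used here. All 35 count columns matched 1 library each, with 0 extra sample columns.

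Counts were filtered with filterByExpr (minimum count 10), leaving 6943 of 24225 loci with a count, scaled by TMM and fitted with edgeR 4.0.16 in R 4.3.3 (quasi-likelihood test, 12 groups of cultivar and tissue, Benjamini-Hochberg over all tested loci, threshold 0.05). The common biological coefficient of variation was 0.248. The slope, curvature, AM minus SAM, cultivar and slope-difference contrasts came from this 1 fit. CPM used the TMM-scaled totals of the 6943 tested loci. Sums of CPM and shares carry no test. Only the slope contrast was checked on simulated data, with independent libraries and the same dispersion at every locus. Alternatives used DESeq2 1.42.0, limma 3.58.1 with voom, other scalings and filters, thinned counts, replicate blocks and left-out libraries. Counting error alone sets the limit that a count of 0 allows (3 counts).

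The members and lists were chosen with earlier results of these data known. Named loci were the 3 most abundant of each type, the H2A.Z, H3.3 and CENH3 loci, every locus passing the test of curvature, AM minus SAM, the cultivar difference or the slope difference, and the 3 lowest and 3 highest slopes. LOC_Os03g17084 was named after its values were seen, for its place beside a named locus and its unadjusted p, and the 3 untested loci because of their counts. Between libraries of equal number in the 2 cultivars, the correlation of deviations from group means ran from -0.0811 to 0.123, over 0.1 in 2 of 17 pairs. The mean correlation inside a set was as low as 0.0847 in Takanari, so these values cannot exclude a pairing of the cultivars by number. Replicates of a group differed by more than counting error, as the lowest chi-square per degree of freedom between replicates was 1.55. This does not show whether replicates came from separate plants or from the same RNA. Libraries of different groups were not compared in this way. No sequence is printed, since no table used here pairs these loci with one.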

Additional observations from a re-analysis of the deposited data

Results flagged for a closer look

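In 9 of 222 groups of 5 or 6 libraries tested, 1 library stood apart from the others of its tissue by Dixon's criterion, and chance flags about 1 in 20 groups. Takanari AM5 library 1 was high for the H2B locus LOC_Os05g49860, at 337.1 CPM with the next library at 179.5. NIL-MP3 AM1 library 17 was low for the H3 locus LOC_Os01g64640, at 641.1 CPM with the next at 1281, and for the H1 locus LOC_Os03g58470, at 568.7 CPM with the next at 998.1. The CENH3 locus LOC_Os05g41080 was high in NIL-MP3 AM5 library 7, at 32.05 CPM with the next at 16.86, and in Takanari SAM library 12, at 148.0 CPM with the next at 68.5. The AM5 flag rests on 3 molecules in NIL-MP3 library 7 against 1 molecule in each other AM5 library. The H2A locus LOC_Os12g25120 was low in NIL-MP3 AM3 library 9, at 67.88 CPM with the next at 191.9. The H2A.Z sum was high in NIL-MP3 AM5 library 1, at 831.6 CPM with the next at 598.3. NIL-MP3 AM5 library 13 had the lowest sum of the other H3 loci, at 311.0 CPM with the next at 812.0, and the highest H3.3 share of H3, at 88.71% with the next at 78.74%.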

How the results depend on the processing

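The slope over AM1 to AM5 passed at 31 to 37 loci in 52 settings. The slope difference and AM1 minus SAM passed at 0 in all 52. The AM1 to AM5 ratio of the core sum (3.06 to 3.60) and of the H3.3 sum (1.08 to 1.23) moved by less than their spread.

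The curvature count (1) was 2 with upper quartile scaling, 3 with no filter, 2 without NIL-MP3 numbers 1 to 6, and 0 without NIL-MP3 numbers 7 to 12 or Takanari numbers 13 to 18. AM minus SAM (3) was 9 with no filter, 16 with voom, 1 with thinned counts, 0 without AM5, and 5 without the 2 libraries of lowest total. Leaving out numbers 1 to 6, 7 to 12 and 13 to 18 of NIL-MP3 gave 14, 0 and 5, and leaving out numbers 1 to 6 and 7 to 12 of Takanari gave 1 and 0. NIL-MP3 minus Takanari (1) was 0 with upper quartile scaling, DESeq2, thinned counts, without AM5 or without any set other than NIL-MP3 numbers 1 to 6 (23), and 2 with no filter and with voom. The slope within NIL-MP3 (32) gave 10 without AM5 and 16 without numbers 7 to 12, and within Takanari (33) it gave 21 in each of those settings. AM5 minus SAM (33) gave 17 without Takanari numbers 7 to 12. The cause was not tested. Apart from the main fit, shares of all tested loci were taken only for the cultivar comparison without single sets. Nothing about the histone loci in particular is read from the other counts.

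With 1 library left out at a time, counts ran from 1 to 2 for curvature (2 without NIL-MP3 AM5 library 1, AM4 library 14 or AM2 library 4), 0 to 5 for AM minus SAM (5 without NIL-MP3 AM5 library 1 or AM2 library 4), 0 to 2 for NIL-MP3 minus Takanari, 19 to 35 for the slope within NIL-MP3, 29 to 33 within Takanari and 22 to 34 for AM5 minus SAM.

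With sets of library numbers fitted as a replicate block of 3 levels, curvature passed at 2 loci and AM minus SAM at 5, and with a block of 6 levels within cultivars at 6 and 22. The share of all tested loci was not taken for these block fits. Whether equal numbers pair the cultivars could not be decided. The slope of LOC_Os04g18090 was 0.024 without AM5, and that of LOC_Os06g04020 was -0.016 without NIL-MP3 numbers 1 to 6. Of 1400 values of single loci, 1316 kept their direction and side of the threshold. The slope of LOC_Os03g27310 lost its call in 18 of 52 settings. The depth, as few as 77362 molecules in a library, limits loci such as CENH3, where a library holds few molecules.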
